A study of Mus musculus with 4 samples.

Results

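Histone genes were followed in a mouse mammary tumour line, 4TO7, that overexpresses the microRNA cluster miR-23b/27b/24. The genes were chosen by name: gene probes whose symbol on the array begins with Hist1h, Hist2h or Hist3h, or with H2af or H3f3, leaving out H2afx. This gave 41 genes on 57 of the 41174 gene probes, 33 of them replication-dependent genes of the Hist clusters and 8 of them variants, and the probe of highest mean intensity stood for each. Of these, 38 (30 replication-dependent genes and 8 variants) were well above background in the cells' RNA on both arrays of at least 1 group and were tested among 20666 genes. Hist1h2ac, Hist1h2be and Hist2h2aa2 were not.

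The miR-23b/27b/24 cells were a stable line with the cluster in the retroviral vector pMSCV, and the vector cells a stable line with pMSCV-puro. Both came from 4TO7, whose strain is given as BALB/cfC3H, and were grown in medium with serum. There were 2 arrays a group, called transfection replicates in the design text, so the p-values below measure the spread between such replicates. Cell RNA (Cy5) was hybridised against Universal Mouse Reference RNA (Cy3), a mix of 11 mouse cell lines, on every array, and the comparison asks which transcripts differ when the cluster is overexpressed. Every value below is a log2 ratio of cells over this reference on one probe, or a difference of such ratios, so it ranks no gene's level against another's. A fold change is the miR-23b/27b/24 mean minus the vector mean, tested with limma over all 20666 genes.

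Replication-dependent histone mRNAs supply the core histones H2A, H2B, H3 and H4 and the linker histone H1 to new chromatin, and are abundant in S phase, when DNA is copied. In place of a poly(A) tail they end in a conserved stem-loop, which the stem-loop binding protein SLBP holds through processing, export and translation. Variant histones such as H2A.Z, H3.3 and macroH2A come from genes outside these clusters, have polyadenylated mRNAs with introns in most cases, and are made throughout the cell cycle. The labelling kit named in the labels makes its first strand from an oligo-dT primer, as such kits do. The part of the missing tail in the values below was not tested.

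Over the genes, which are no replicates of one another, log2 ratios of the miR-23b/27b/24 arrays correlated at 0.952 and those of the vector arrays at 0.887, against 0.628 to 0.725 between groups. Between 69.9% and 74.8% of gene probes were well above background in Cy5. Of the 5 epithelial markers, Krt8, Krt18, Krt7, Epcam and Cdh1, all were measured. By limma's adjusted p 3 of them were lower in miR-23b/27b/24 cells, where 4.7% of all genes were lower. Among the markers of other cells, Cdh2 and Cdh5 were not well above background. The log2 ratio of the leukocyte gene Ptprc lay between -5.82 and -5.72 on the 4 arrays. Of the 8 measured, 1 was called, Cd68 (lower), where 9.54% of all genes were called in either direction. The mature microRNAs were not analysed here.

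Several probes lie in coding stretches that histone genes share, so the sequences set what each value can stand for. The following probes are 60 bases long and are given 5′ to 3′ with mm7 coordinates from the files, and capitals mark the longest run shared with the partner probe. The H2A probes of Hist1h2af and Hist1h2aa share 44 bases:
Hist1h2af, chr13:22900228-22900287 (+): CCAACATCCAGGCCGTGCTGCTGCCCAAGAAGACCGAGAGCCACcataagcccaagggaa
Hist1h2aa, chr13:23300592-23300651 (+): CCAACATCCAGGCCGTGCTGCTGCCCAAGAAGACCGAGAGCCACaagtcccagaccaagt
The H2B probes of Hist1h2bk and Hist1h2bm share 52 bases, and that of Hist3h2bb, on another chromosome, shares 26 with Hist1h2bm:
Hist1h2bk, chr13:21402048-21402107 (+): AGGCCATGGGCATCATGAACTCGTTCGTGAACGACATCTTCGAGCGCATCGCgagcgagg
Hist1h2bm, chr13:21088259-21088318 (+): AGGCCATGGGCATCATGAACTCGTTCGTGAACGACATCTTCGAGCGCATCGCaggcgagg
Hist3h2bb, chr11:59035740-59035799 (-): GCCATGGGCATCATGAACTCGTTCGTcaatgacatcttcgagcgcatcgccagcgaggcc
The H3 probes of Hist1h3d and Hist2h3c1 share only 17 bases:
Hist1h3d, chr13:22942103-22942162 (+): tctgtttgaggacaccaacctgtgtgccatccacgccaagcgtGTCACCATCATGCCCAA
Hist2h3c1, chr3:96121184-96121243 (+): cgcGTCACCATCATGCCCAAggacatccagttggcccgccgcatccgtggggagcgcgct
In all, 11 of the 41 genes have a probe that shares at least 25 bases in a row with the probe of another: 4 H2A, 3 H2B and 3 H4 genes and the variant H2afj. The array's own annotation lists 4 genes each for the probes of Hist1h2ai, Hist2h2ac, Hist1h2bk, Hist1h2bm, Hist1h3d, Hist1h4d and Hist1h4f. Values of such probes belong to a family and not to a single gene.

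Other probes reach into the 3′ end, where the stem-loop lies. The Hist1h3a probe holds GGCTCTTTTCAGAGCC, 16 bases whose ends pair to form the stem, and a search for these letters in full found them in 1 of the 41174 probes (0.00243%), its own. The probe of Hist1h2ab ends within it and that of Hist1h2ae begins within it, with 48 bases past it. These 30-base windows show the probe bases of the motif in capitals:
Hist1h3a, probe chr13:23127689-23127748 (-): aattaaccaaaGGCTCTTTTCAGAGCCaca
Hist1h2ab, probe chr13:23117325-23117384 (+): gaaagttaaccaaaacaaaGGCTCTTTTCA
Hist1h2ae, probe chr13:22936613-22936672 (-): CTTTTCAGAGCCattcacttaattcagtaa
The Hist1h2ae probe can therefore pair only with RNA that runs on past the usual end of the mature histone mRNA, as a polyadenylated or unprocessed transcript does.

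Of the 38 histone genes tested, 4 rose in miR-23b/27b/24 cells (adjusted p under 0.05) and 0 fell. Over all genes 9.54% were called, 4.84% higher and 4.7% lower. The 4 were the variants H2afy3, H2afz and H2afy2 and the replication-dependent H3 gene Hist1h3a. H2afy2 entered the test only through the miR-23b/27b/24 arrays, on which it is higher, and it is not counted where all 4 arrays had to be well above background in both channels, which left 3 calls. A limma p under 0.05 before adjustment was reached by 8 of the 38, all of them variants or H3 genes and all higher. This was a smaller share than over all genes, where 5741 of 20666 reached it. Apart from H2afy2 the calls were H2afy3 and H2afz among the variants and Hist1h3a among the 3 H3 genes, with 0 among the 27 H1, H2A, H2B and H4 genes. With every local background as measured, H2afy3 alone was called. Each count rests on few arrays: without miR-23b/27b/24 replicate 1 or replicate 2 it was 0 of 38, where 225 and 245 genes in all were called. Without vector replicate 1 it was 13 higher, and without vector replicate 2 it was 8 higher and 2 lower, where 4628 and 2760 genes in all were called. In each fit without an array the lone array of its group is assumed to vary like the pair of the other group. Without a vector array the spread therefore comes from the miR-23b/27b/24 arrays, which lay closer together, and the gap between the vector arrays is not in the error. This holds for every call without a vector array given below.

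**Figure D1:**
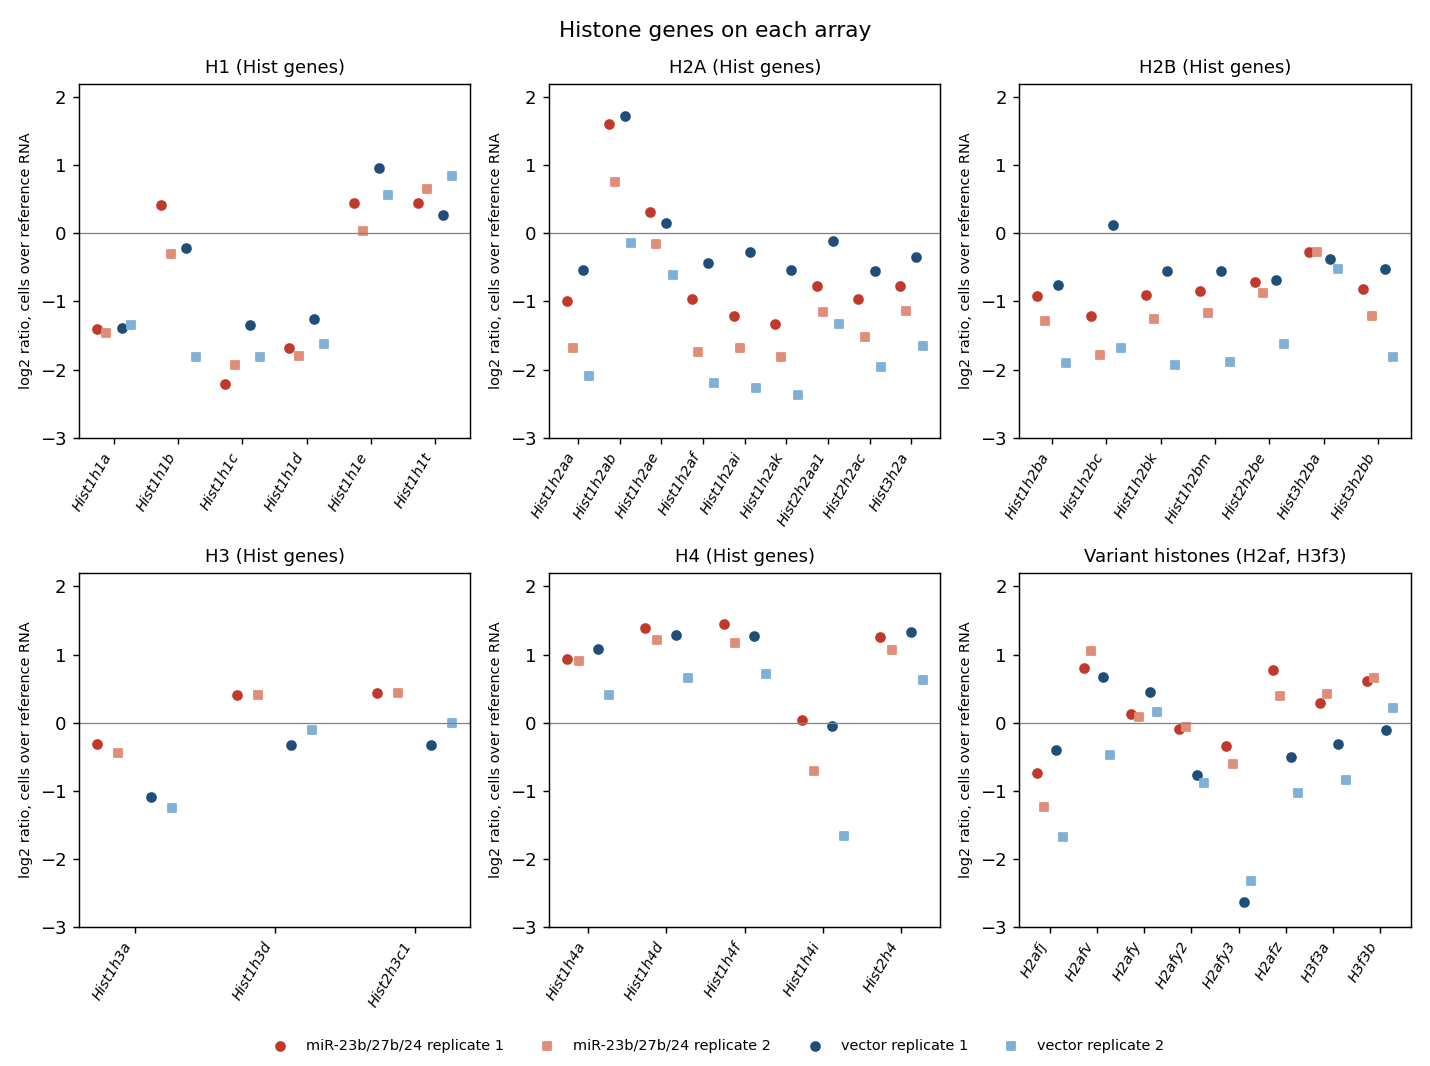
Log2 ratio of cells over reference RNA (y axis) of the 38 histone genes on each of the 4 arrays, by class: red for miR-23b/27b/24 replicates 1 (circle) and 2 (square), blue for vector replicates 1 (circle) and 2 (square). In the H3 panel both red points lie above both blue ones for all 3 genes, while in the H2A and H2B panels the blue circle lies above the blue square for all 16.

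The variants lay higher in the miR-23b/27b/24 cells in most cases, and the median of their 8 log2 fold changes was 0.79, against -0.03 for all genes. Both miR-23b/27b/24 arrays lay above both vector arrays for 6 of 8 variants, where 27.5% of all genes did so. The exceptions were H2afj, which overlapped, and H2afy, which lay lower. H2afy2 is among the 6, though it entered the test only through the miR-23b/27b/24 arrays, so its place there is no added support. Where all 4 arrays had to be well above background in both channels, which leaves H2afy2 out, the variant median was 0.83.

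H2afz encodes H2A.Z.1, a variant of H2A placed at promoters by dedicated remodelling complexes. Its log2 ratio was 0.78 and 0.39 on the miR-23b/27b/24 arrays, against -0.50 and -1.04 on the vector arrays. The groups did not overlap, and H2afz was 2.56-fold higher, a log2 fold change of 1.36 ± 0.24 (SE, limma adjusted p = 0.0383; 95% interval 0.73 to 1.99). The call was lost when local backgrounds were all used as measured (adjusted p = 0.0778), with median centring (adjusted p = 0.158) and from Cy5 alone (0.89, adjusted p = 0.0777). A second probe under the name H2afz was not well above background. It is placed at chr6:116197660-116197719 (-) in mm7, while the first lies on chromosome 3, so what it reads is not settled. H2afv encodes the close relative H2A.Z.2. It gave 0.81 and 1.05 in miR-23b/27b/24 cells, against 0.67 and -0.47 in vector cells, so its groups did not overlap but the vector arrays lay 1.13 apart. The log2 fold change of H2afv was 0.83 ± 0.39 (95% interval -0.19 to 1.84, limma adjusted p = 0.254). It was 1.40 with vector replicate 2 as the lone vector array and 0.26 with vector replicate 1 as the lone one.

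The macroH2A genes encode H2A variants with a large extra domain at the C terminus and are known for their part in silent chromatin. H2afy, now Macroh2a1, showed 0.13 and 0.09 in miR-23b/27b/24 cells, against 0.45 and 0.16 in vector cells (log2 fold change -0.20 ± 0.15, adjusted p = 0.465). Its other probes gave differences of -0.80 and 0, so the 3 probes of this gene, whose transcripts are known to be alternatively spliced, did not move alike. H2afy2, now Macroh2a2, was at -0.09 and -0.06 in miR-23b/27b/24 cells, against -0.77 and -0.88 in vector cells. It was well above background on both miR-23b/27b/24 arrays and on neither vector array, so its vector level is not settled. The Cy5 channel, which is open to dye bias, put it at least 1.77-fold higher with outlying local backgrounds replaced, while the fitted ratio, which is no bound, was 1.68-fold (log2 fold change 0.75 ± 0.12, adjusted p = 0.0313). With every local background as measured the log2 fold change was 0.24 (adjusted p = 0.494), so neither fold holds under that setting.

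H2afy3 showed the largest change among the 38, with -0.34 and -0.61 in miR-23b/27b/24 cells, against -2.64 and -2.33 in vector cells. The gap between groups was several times the spread within either, a log2 fold change of 2.01 ± 0.18 (95% interval 1.55 to 2.47) or 4.03-fold (adjusted p = 0.00826). RefSeq names this locus Macroh2a3 and classes it as a transcribed pseudogene, 1 of 2 pseudogenes among the 41 genes. Its probe lies at chr15:62291905-62291964 (-) in mm7, away from H2afy on chromosome 13 and H2afy2 on chromosome 10. The longest run it shares with any other histone gene's probe is 7 bases.

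H3.3, the H3 variant laid down outside replication, is made from the genes H3f3a and H3f3b. H3f3a gave 0.29 and 0.42 in miR-23b/27b/24 cells, against -0.31 and -0.84 in vector cells (log2 fold change 0.93 ± 0.21, adjusted p = 0.0631). Its other probes gave differences of 1.03 and 1.00. H3f3b gave 0.61 and 0.65 in miR-23b/27b/24 cells, against -0.11 and 0.22 in vector cells (log2 fold change 0.57 ± 0.16, adjusted p = 0.0913), and 0.61 on its second probe. Neither passed the threshold, though the groups did not overlap for either. With vector replicate 1 as the lone vector array and the spread of the miR-23b/27b/24 pair, both passed, H3f3a at 0.66 (adjusted p = 0.0478) and H3f3b at 0.74 (adjusted p = 0.0327). With vector replicate 2 alone H3f3a passed, at 1.2 (adjusted p = 0.00827).

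H2afj encodes H2A.J, an H2A variant known in human cells to build up in senescence. Its log2 ratio was -0.74 and -1.24 in miR-23b/27b/24 cells, inside the range of -0.40 and -1.68 in vector cells (log2 fold change 0.04 ± 0.46, adjusted p = 0.963). Its probe shares 29 bases with that of Hist1h2af, and its order of arrays was that of most H2A genes described below. A second H2afj probe gave -0.50 and -0.69 in miR-23b/27b/24 cells, against -0.82 and -1.30 in vector cells.

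**Figure D2:**
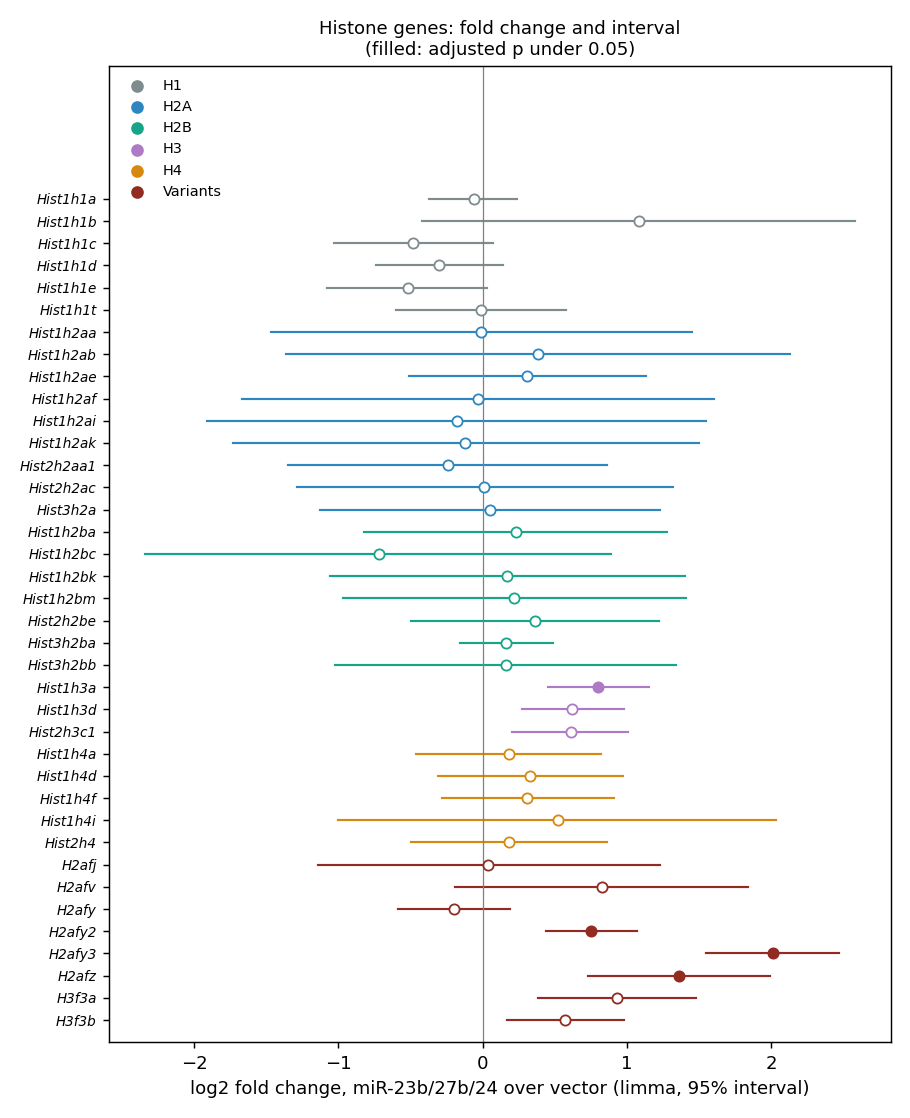
Log2 fold change of miR-23b/27b/24 over vector cells (x axis) with its 95% limma interval for the 38 histone genes, coloured by class, with filled points for adjusted p under 0.05. The filled points are H2afy3, H2afz, H2afy2 and Hist1h3a, and the intervals of most H2A genes run from below -1 to above 1.

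The 3 H3 genes of the clusters, which encode the replication-dependent forms of H3, had vector arrays close together, with gaps of -0.32 to 0.16 between replicates 1 and 2, and lay higher in miR-23b/27b/24 cells by a median of 0.62. Hist1h3a was at -0.31 and -0.44 in miR-23b/27b/24 cells, against -1.09 and -1.25 in vector cells. This was a 1.74-fold rise, with a log2 fold change of 0.80 ± 0.13 (95% interval 0.45 to 1.15, adjusted p = 0.034). With every local background as measured the difference was 0.19 (adjusted p = 0.717), so both its size and the call rest on how outlying backgrounds are treated. Hist1h3d was at 0.40 and 0.41 in miR-23b/27b/24 cells, against -0.33 and -0.11 in vector cells (log2 fold change 0.62 ± 0.14, adjusted p = 0.0592). Hist2h3c1 was at 0.44 and 0.44 in miR-23b/27b/24 cells, against -0.33 and 0.00 in vector cells (log2 fold change 0.61 ± 0.16, adjusted p = 0.0802). All 3 were non-overlapping and higher, where 27.5% of all genes were so. The annotation ties the probes of Hist1h3d and Hist2h3c1 to 4 and 3 genes. With vector replicate 1 as the lone vector array their log2 fold changes were 0.74 and 0.77. With vector replicate 2 as the lone one they were 0.51 and 0.44.

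The H2A and H2B genes, which form the dimers on the face of the nucleosome, showed a different pattern: the vector arrays disagreed with each other more than the groups did. Vector replicate 1 lay above vector replicate 2 in 16 of 16 measured genes, by 0.15 to 1.99 with a median of 1.36, against a median of 0.01 over all genes. The miR-23b/27b/24 arrays had the same order in 16 of 16, with a median gap of 0.44. Over all 20666 genes replicate 1 lay above replicate 2 in 10667 on the vector and in 10401 on the miR-23b/27b/24 arrays. For H2A genes the median log2 ratio was -0.96 and -1.52 on the miR-23b/27b/24 arrays, against -0.35 and -1.96 on the vector arrays, so both miR-23b/27b/24 medians fell between the vector ones. For H2B genes it was -0.84 and -1.21 in miR-23b/27b/24 cells, against -0.55 and -1.82 in vector cells. The median log2 fold change of the 16 genes was 0.11, their adjusted p ran from 0.466 to 0.991, and none had a limma p under 0.05 before adjustment. Both miR-23b/27b/24 arrays lay above both vector arrays in 1 of 16, Hist3h2ba, where 27.5% of all genes did so. With vector replicate 1 left out, the median over H2A genes was 0.77, and with vector replicate 2 left out it was -0.79. For H2B genes these medians were 0.81 and -0.45, so the sign of either median changed with the vector array that was kept.

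Hist1h2af, which had the brightest probe of its class, was at -0.96 and -1.74 in miR-23b/27b/24 cells, against -0.44 and -2.20 in vector cells. Its log2 fold change of -0.03 ± 0.63 has a 95% interval of -1.67 to 1.60, which bounds the change and leaves its sign unsettled. Hist1h2aa encodes an H2A known from testis, and its probe, which shares 44 bases with that of Hist1h2af, gave nearly the same values, -0.99 and -1.68 in miR-23b/27b/24 cells, against -0.54 and -2.10 in vector cells. Which of the transcripts the probe read cannot be told apart. Hist1h2ai, at -1.22 and -1.69 in miR-23b/27b/24 cells, against -0.28 and -2.27 in vector cells, had the widest vector gap, 1.99, and its log2 fold change was -1.18 against vector replicate 1 alone (adjusted p = 0.0369) and 0.81 against vector replicate 2 alone. Hist2h2aa1, whose log2 fold change of -0.24 was the lowest of its class, overlapped as well.

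In the H2A probes at the stem-loop, too, replicate 1 lay above replicate 2 in either group. Hist1h2ab, whose probe ends within the stem-loop, was at 1.60 and 0.75 in miR-23b/27b/24 cells, against 1.73 and -0.14 in vector cells (log2 fold change 0.38 ± 0.67). Hist1h2ae, read past the stem-loop, was at 0.32 and -0.15 in miR-23b/27b/24 cells, against 0.16 and -0.61 in vector cells (log2 fold change 0.31 ± 0.32, adjusted p = 0.585). The Hist1h2ae vector gap of 0.78 was the smallest of the 9 H2A genes. Its probe was also the dimmest of these, with a mean log2 intensity of 7.319. With Feature Extraction's processed signals and loess its SE was 0.53. The part of the weak signal in this gap was not tested.

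Among H2B genes Hist1h2bc had the lowest log2 fold change, -0.72 ± 0.62 (adjusted p = 0.519). It was at -1.22 and -1.78 in miR-23b/27b/24 cells, against 0.13 and -1.68 in vector cells, so vector replicate 1 alone lay apart. Against vector replicate 1 alone its value was -1.63 (adjusted p = 0.0224), and against vector replicate 2 alone 0.18. Hist2h2be had the highest, 0.36 ± 0.33, with -0.71 and -0.88 in miR-23b/27b/24 cells, against -0.68 and -1.63 in vector cells. Hist1h2bk and Hist1h2bm, whose probes share 52 bases, had log2 fold changes of 0.17 and 0.22. That of Hist3h2bb, the second pseudogene, was 0.16. The annotation ties the Hist3h2bb probe to the coding gene H2bu2, the current name of Hist3h2ba, so which transcript it read is not settled. Hist1h2ba, which encodes an H2B of the testis, was at -0.92 and -1.29 in miR-23b/27b/24 cells, against -0.76 and -1.90 in vector cells. None of these H2B differences passed the threshold with all arrays, while Hist2h2be, Hist1h2ba, Hist1h2bk and Hist1h2bm did with vector replicate 2 as the lone vector array and the spread of the miR-23b/27b/24 pair.

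**Figure D3:**
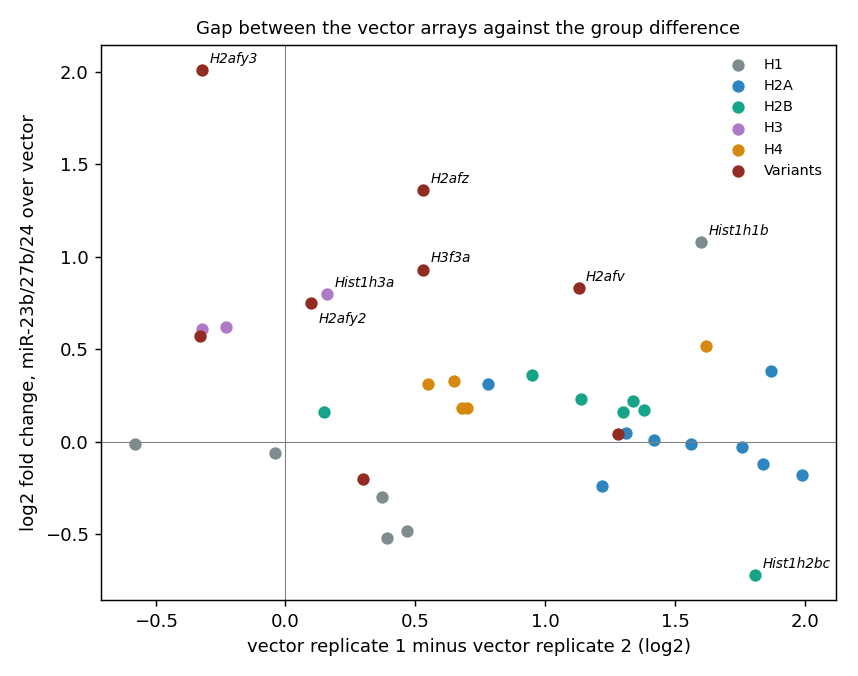
Difference between the vector arrays, replicate 1 minus replicate 2 (x axis, log2), against the log2 fold change of miR-23b/27b/24 over vector cells (y axis) for the 38 histone genes, coloured by class. The H2A and H2B genes lie mostly at a vector gap over 1 and a fold change near 0, while the called genes H2afy3, H2afz, H2afy2 and Hist1h3a have vector gaps between -0.32 and 0.53. The vector gap is part of the error in the test, so a small gap favours a call.

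The 5 H4 genes lay above the reference RNA with 1 exception, at medians of 1.26 and 1.06 in miR-23b/27b/24 cells, against 1.27 and 0.63 in vector cells. Their log2 fold changes ran from 0.18 to 0.52 with a median of 0.31, the groups overlapped for all 5, and none was called. Hist1h4f was at 1.45 and 1.17 in miR-23b/27b/24 cells, against 1.27 and 0.72 in vector cells (log2 fold change 0.31 ± 0.23, adjusted p = 0.445), and Hist1h4d, which shares 50 probe bases with it, at 1.39 and 1.21 in miR-23b/27b/24 cells, against 1.29 and 0.65 in vector cells (log2 fold change 0.33). The exception was Hist1h4i, at 0.04 and -0.71 in miR-23b/27b/24 cells, against -0.05 and -1.66 in vector cells, which had the largest H4 fold change and the largest spread (0.52 ± 0.58). The array describes the Hist1h4i probe by a read from a cDNA clone that names no gene, so its tie to this gene is less certain. No RefSeq accession listed for it matched a current RefSeq gene. Among tested genes this also held for the probes of H2afv and H2afy3, which the array describes by sequences named for these genes. Against vector replicate 2 alone Hist1h4i and Hist1h4d passed the threshold (1.33 and 0.65), with the spread of the miR-23b/27b/24 pair. The H4 median was 0.59 without vector replicate 1 and -0.16 without vector replicate 2.

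The linker histones of the H1 family bind where DNA enters and leaves the nucleosome. Of the 6 H1 genes, 5 had log2 fold changes below 0 and the median was -0.18, but none was called. In 4 of 6 both miR-23b/27b/24 arrays lay below both vector arrays, as for 32.3% of all genes. Hist1h1e was at 0.44 and 0.04 in miR-23b/27b/24 cells, against 0.96 and 0.57 in vector cells (log2 fold change -0.52 ± 0.21, adjusted p = 0.200). Hist1h1c was at -2.21 and -1.93 in miR-23b/27b/24 cells, against -1.35 and -1.82 in vector cells (log2 fold change -0.48 ± 0.21, adjusted p = 0.226). Hist1h1d (-0.30) and Hist1h1a (-0.06) were the other non-overlapping genes, the last by 0.02. A second Hist1h1d probe gave 0.01 and -0.39 in miR-23b/27b/24 cells, against 0.10 and -0.64 in vector cells. There the groups overlapped and the difference was 0.08, so the place of Hist1h1d in both H1 counts rests on its brightest probe. Hist1h1t, an H1 of the testis, gave -0.01. Hist1h1b ran the other way, with 0.42 and -0.30 in miR-23b/27b/24 cells, against -0.22 and -1.82 in vector cells, a log2 fold change of 1.08 ± 0.58 (95% interval -0.42 to 2.58, adjusted p = 0.305). It was the largest positive value among replication-dependent genes, but the vector arrays lay 1.60 apart. The log2 fold change of Hist1h1b was 1.88 with vector replicate 1 left out and 0.28 with vector replicate 2 left out. Either fit takes this gap out of the error.

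Over the 30 replication-dependent genes the median log2 fold change was 0.17, with 19 above and 11 below 0, and both miR-23b/27b/24 arrays lay above both vector arrays in 4 and below them in 4 (13.3% each), where 27.5% and 32.3% of all genes did so. Leaving out vector replicate 1 put this median at 0.70, and leaving out vector replicate 2 at -0.40, while the variants stayed at 1.00 and 0.68. The H3 median was 0.51 and 0.74. Whether the variants and the replication-dependent genes differ in their response was not tested.

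Genes of DNA replication, which are expressed at the G1 to S boundary and in S phase, give the cell cycle context on the same arrays. Of 45 measured, 10 rose and 0 fell, with a median log2 fold change of 1.00, and both miR-23b/27b/24 arrays lay above both vector arrays in 41. Over all genes 4.84% rose, 4.7% fell and 27.5% did not overlap and were higher. Their median log2 ratio was 0.20 and 0.11 in miR-23b/27b/24 cells, against -0.43 and -1.22 in vector cells. The largest called by their brightest probe were Cdc7, a kinase that fires origins, 4.78-fold (adjusted p = 0.0266; a log2 fold change of 2.26, but 1.5 as the mean of its probes), the cyclin gene Ccne1, 4.01-fold (adjusted p = 0.0123), the sliding clamp gene Pcna, 3.86-fold (adjusted p = 0.0253), and the origin loader gene Cdc6, 3.51-fold (adjusted p = 0.0438). Vector replicate 1 lay above vector replicate 2 in 43 of these 45 genes, with a median gap of 0.80. This was the same order as in the H2A, H2B and H4 genes. The part of the cycle state of each culture in the histone values was not tested. The median over the 45 genes was 1.44 without vector replicate 1 and 0.55 without vector replicate 2, above 0 in either case, unlike that of the H2A and H2B classes.

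**Figure D4:**
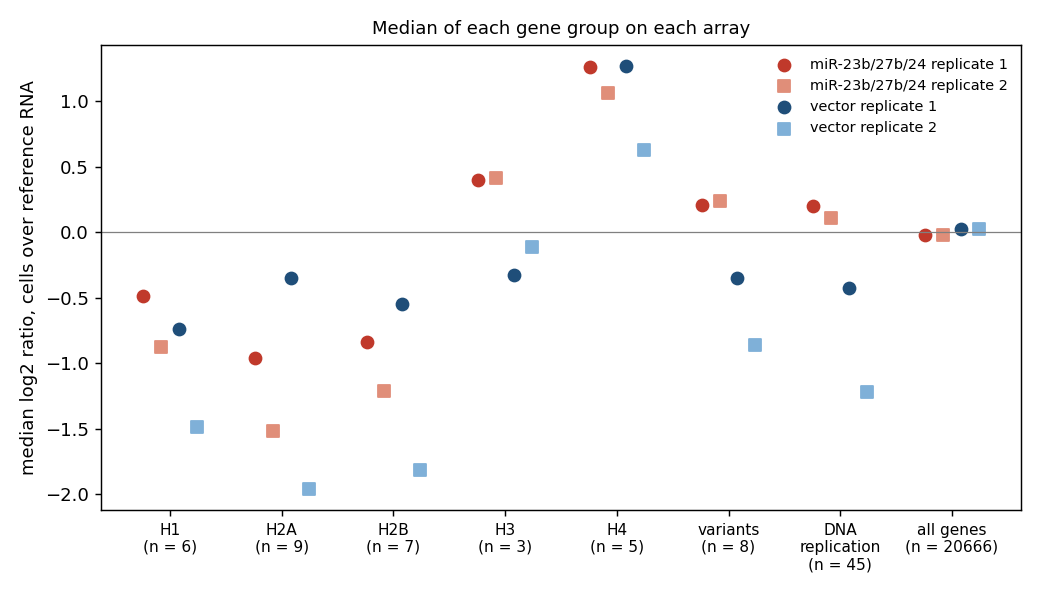
Median log2 ratio of cells over reference RNA (y axis) of each gene group on each array, with miR-23b/27b/24 arrays in red and vector arrays in blue (circles replicate 1, squares replicate 2) and the number of genes under each group. For DNA replication genes, variants and H3 both red points lie above both blue points, for H2A and H2B they lie between them, and for all 20666 genes the 4 medians lie between -0.02 and 0.02.

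The machinery that makes and trims histone mRNA was mixed. Of 20 genes, all measured, 4 rose and 1 fell, beside 4.84% and 4.7% of all genes, and the median log2 fold change was 0.05. Slbp, which encodes the stem-loop binding protein itself, was at 0.41 and 0.31 in miR-23b/27b/24 cells, against -0.67 and -1.30 in vector cells, a 2.55-fold rise (log2 fold change 1.35 ± 0.23, adjusted p = 0.0365). Ars2, now Srrt, which works with the nuclear cap-binding complex, rose 3.25-fold (adjusted p = 0.0209), and Cstf2, the cleavage factor CstF64, rose 2.14-fold (adjusted p = 0.0366). The fourth was Casp8ap2, which encodes the histone locus protein FLASH (log2 fold change 0.78 ± 0.14, adjusted p = 0.0397). The fall was that of Zcchc6, now Tut7, a uridylyl transferase, by 1.81-fold (adjusted p = 0.0232). Npat, the cyclin E-CDK2 substrate that activates histone transcription, did not pass (log2 fold change 0.28 ± 0.16, adjusted p = 0.342), and neither did Lsm10 (0.63 ± 0.17, adjusted p = 0.0877) or Lsm11 (-0.21 ± 0.26, adjusted p = 0.670), the proteins particular to the U7 particle that cuts these mRNAs. Npat, Lsm10, Lsm11 and Casp8ap2 are named for their roles, after their values were seen.

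Histone chaperones escort histones to and from DNA. Of 27 genes, all measured, 3 rose and 1 fell, beside 4.84% and 4.7% of all genes, and the median log2 fold change was 0.42. Dnajc9, a co-chaperone of H3 and H4, rose 2.69-fold (adjusted p = 0.0212), Nasp, which holds the soluble H3 and H4 pool, rose 2.13-fold (adjusted p = 0.0361), and Rbbp7, a histone-binding protein, rose 1.83-fold (adjusted p = 0.0351). Npm1, the nucleolar chaperone nucleophosmin, fell by 1.86-fold (adjusted p = 0.0244). The subunits of the replication-coupled complex CAF-1 lay higher without passing, Chaf1a by 1.02 ± 0.29 (adjusted p = 0.0964) and Chaf1b by 1.16 ± 0.28 (adjusted p = 0.0744), and Hira, the chaperone of H3.3, showed 0.11 ± 0.20 (adjusted p = 0.787). These 3 are also named for their roles, after their values were seen.

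Of 8 histone genes outside the naming rule, 1 rose and 0 fell, beside 4.84% and 4.7% of all genes. H1f0, the linker histone of cells that have slowed or stopped dividing, was at 0.98 and 1.35 in miR-23b/27b/24 cells, against -0.12 and -0.27 in vector cells, a 2.57-fold rise (log2 fold change 1.36 ± 0.17, adjusted p = 0.019). H2afx, whose product is phosphorylated at DNA breaks, was at 1.21 and 1.07 in miR-23b/27b/24 cells, against 0.44 and -0.60 in vector cells, and did not pass (log2 fold change 1.22 ± 0.36, adjusted p = 0.107). The median of the 8 was 0.34. Of the called genes given with their folds for DNA replication, histone mRNA, chaperones and these 8, all lost the call without miR-23b/27b/24 replicate 1, and all but Ccne1 without miR-23b/27b/24 replicate 2. With every local background as measured only Npm1, H1f0 and Ccne1 of these kept it, while Slbp (adjusted p = 0.0711), Ars2 (0.0732), Cstf2 (0.148), Zcchc6 (0.0984), Dnajc9 (0.0524), Nasp (0.0701), Rbbp7 (0.0655), Cdc7 (0.087), Pcna (0.0565) and Cdc6 (0.13) did not. Median centring ended the call of Slbp, Cstf2, Dnajc9, Nasp, Rbbp7, Pcna and Cdc6. Npm1 and Rbbp7 also lost it with Feature Extraction's processed signals (adjusted p of 0.0625 and 0.055), and Zcchc6 and Nasp with the mean of their probes (0.0571 and 0.0591).

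TATAAA, the letters of a TATA box, was found more often in promoters of replication-dependent genes than in all promoters, and CCAAT, the letters of a box known in many cell cycle promoters, in both classes. RefSeq promoters of GRCm38.p6, 250 bases before to 50 after the start, were found for 35 of the 41 genes, and both motifs were searched on both strands. CCAAT was in 26 of 28 replication-dependent promoters (92.9%), in 6 of 7 variant promoters (85.7%) and in 37.9% of all 27025. TATAAA was in 19 of 28 (67.9%), in 1 of 7 (14.3%) and in 14.2%. The 250 bases before the start of H2afz and of Hist1h3d are given as an example of each, with both motifs, read on either strand, in capitals:
H2afz, chr3:137864237-137864486 (+): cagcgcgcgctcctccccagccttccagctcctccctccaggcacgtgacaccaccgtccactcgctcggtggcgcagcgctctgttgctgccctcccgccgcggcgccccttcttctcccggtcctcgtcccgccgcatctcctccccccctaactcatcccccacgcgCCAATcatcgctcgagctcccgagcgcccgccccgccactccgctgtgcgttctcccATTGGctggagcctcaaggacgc
Hist1h3d, chr13:23575513-23575762 (+): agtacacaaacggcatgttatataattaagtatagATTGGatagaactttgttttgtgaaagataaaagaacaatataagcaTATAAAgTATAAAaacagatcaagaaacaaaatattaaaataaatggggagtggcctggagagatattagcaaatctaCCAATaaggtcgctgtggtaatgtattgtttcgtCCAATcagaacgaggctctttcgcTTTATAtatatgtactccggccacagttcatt
The H2afz stretch holds CCAAT at 2 places and TATAAA at 0, and that of Hist1h3d holds each at 3. A match is a description of the letters and names no factor at work in these cells.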

How the data were processed

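Expression was measured on 4 whole-mouse-genome Agilent arrays of 2 colours, 2 per group, all on 1 slide read in 1 scan, with no dye swap. Spot and local background intensity, a processed intensity and the log10 ratio of Cy5 over Cy3 came from Agilent Feature Extraction 9.5.3.1, per the file headers. The authors' value table, as deposited, is in log2, and 87.3% to 87.8% of its values lay within 0.001 of that ratio centred on the probe's median. Column medians were 0.0221 and -0.0149 for miR-23b/27b/24 and 0.0133 and -0.0172 for vector arrays. The program behind this table is not stated in the labels or headers.

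In R 4.3.3 with limma 3.58.1, local backgrounds marked as outliers (1782 to 1976 per array in Cy5) were replaced by the array's median, followed by normexp (offset 50) and loess within arrays without control spots. Spots marked as outliers were dropped and the rest averaged per probe. A probe was kept if its Cy5 signal was well above background on both arrays of a group, and the brightest stood for its gene name. The test was lmFit with eBayes, with 2 residual degrees of freedom plus a prior 2.83, and p-values were adjusted by Benjamini-Hochberg over all genes. Current names came from RefSeq for all 41 genes. The method was also run on simulated data. The histone genes, the gene lists and the treatment of backgrounds were chosen with earlier results of these data known. Named genes were the called ones, every variant, the 2 highest and 2 lowest log2 fold changes and the brightest probe of each class, and up to 4 called genes of each related list by size of change. The H2A and H2B pairs with shared bases, the stem-loop genes and others said to be so were added for what their probes or roles are. Alternatives covered background, scaling, filter and probe choices, the replicate number as a block, and each array left out in turn.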

Additional observations from a re-analysis of the deposited data

How the results depend on the processing

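The number of arrays limits every value, and no block for slide or scan was run because all arrays share 1 of each. With every local background as measured 648 genes were called, 1 of them a histone gene (H2afy3). With median centring in place of loess 1292 genes were called, 2 of them histone genes (H2afy3 and Hist1h3a). The share of higher calls was 50.8% as reported and 42.3% to 54.0% over all settings. Leaving out 1 array at a time gave 225 to 4628 called genes, with 0 to 13 histone genes higher and 0 to 2 lower. Over all genes the differences between replicates 1 and 2 of the groups correlated at only 0.0469. In the H2A and H2B genes, however, replicate 1 lay above replicate 2 in 16 of 16 in either group. Whether the replicate numbers pair the arrays was not tested. With the numbers as a replicate block 1758 genes were called, among them 3 histone genes, 894 genes higher and 864 lower, with H2afy2 no longer past the threshold. The block took the SE from 0.63 to 0.28 for Hist1h2af and from 0.58 to 0.25 for Hist1h1b, but from 0.18 to 0.20 for H2afy3. Hist1h2af and Hist1h1b stayed uncalled (limma adjusted p = 0.959 and 0.081). Over 15 alternatives the log2 fold change ranged from 1.63 to 2.17 for H2afy3 (adjusted p 0.00478 to 0.07), from 0.89 to 1.62 for H2afz (0.00931 to 0.22) and from 0.19 to 1.28 for Hist1h3a (0.0175 to 0.717), and over 14 from 0.24 to 2.51 for H2afy2 (0.00419 to 0.494). The variant median lay between 0.68 and 1.00 and the replication-dependent median between -0.40 and 0.70. Among the 26 named histone genes, the ones recomputed one by one, sign changes away from leaving out arrays were these: Hist1h2ba at 0 with backgrounds as measured, Hist1h2af at 0.01 with processed signals and loess, and H2afj at -0.15 with median centring and -0.01 from Cy5 alone. Leaving out 1 array turned the sign of more of the 26, whose values then ran from -0.59 to 0.68 for H2afj, from -0.55 to 1.32 for Hist1h2ab, from -0.08 to 0.70 for Hist1h2ae, from -0.91 to 0.85 for Hist1h2af, from -1.18 to 0.81 for Hist1h2ai and from -0.35 to 0.80 for Hist1h2ba. They ran from -1.63 to 0.18 for Hist1h2bc, from -0.29 to 1.33 for Hist1h4i, from -0.85 to 0.37 for Hist2h2aa1, from -0.11 to 0.83 for Hist2h2be and from -0.49 to 0.81 for Hist3h2bb.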
